A study of Homo sapiens with 12 samples.

Results

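Human chromosome 19 carries the densest collection of zinc finger genes in the genome, and 192 of them were followed here in cisplatin-treated ovarian cancer cells. The members are the genes of the deposited expression table with a symbol that begins with ZNF and a digit and with a position on chromosome 19 of GRCh38 (GENCODE release 29). They were 192 of the 14029 genes tested and 192 of the 251 protein-coding genes of that kind annotated on the chromosome, and the other 59 are not analysed here. Of the members, 55 lie on the short arm, 19p, and 137 on the long arm, 19q. The table lists genes with as few as 2 reads over the 6 libraries, and the lowest member had 16. The submitters' filter on low genes is not given in the sources used here, so a weakly transcribed member may be listed through 1 group alone.

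The cells were ES-2, an established human ovarian cancer line. The libraries labelled SRMS shRNA (3 replicates) came from ES-2 cells that express a short hairpin RNA named for SRMS, a non-receptor tyrosine kinase related to the SRC family. The vector libraries (3 replicates) came from ES-2 cells that carry the control vector. Both groups had received 15 µM cisplatin, a platinum drug that crosslinks DNA, for 8 hours. The question posed by this pair is how SRMS deficiency alters gene expression under cisplatin. The labels name 6 further samples given PBS, which are not analysed here, so no effect of cisplatin itself can be read from these values. They do not say that the replicates are separate cultures, and p-values therefore reflect only library-to-library spread, which may be technical.

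SRMS itself was no lower where the label names its hairpin. Its signal was 0.328, 1.07 and 0.863 in libraries labelled SRMS shRNA, against 0.0669, 0.306 and 0.819 in vector libraries, and the groups overlapped (exact two-sided permutation test, p = 0.2, with 0.1 the smallest p that 3 against 3 libraries allow). The log2 fold change was 0.52 (SE 0.30, limma adjusted p = 0.168). SRMS passed as higher with the replicate number as a block (adjusted p = 0.00782), without vector replicate 3 (0.84, adjusted p = 0.0281) and without replicate 1 of SRMS shRNA (0.79, adjusted p = 0.0245). The listed genes held 28009232 to 38072051 reads per library labelled SRMS shRNA and 29072793 to 56855428 per vector library. The deposited signal is a gene's reads relative to the library's effective size, on the scale of CPM. Keratin, vimentin and fibronectin genes were abundant as in an epithelial tumour line, while PAX8, a Müllerian marker, had a signal of at most 0.365 in any library. Lists of other cell types differed between the groups through few genes. The summed signal of 3 listed leukocyte markers was 3.49 to 4.12 in libraries labelled SRMS shRNA and 0.83 to 1.41 in vector libraries, and that of 3 endothelial markers was 5.88 to 8.36 in libraries labelled SRMS shRNA and 14.8 to 16.8 in vector libraries. That of 3 fibroblast markers was 814 to 820 in libraries labelled SRMS shRNA and 1236 to 1239 in vector libraries, nearly all of it COL1A1. ALAS2, the only listed erythroid marker, had 0.128 to 0.328 in libraries labelled SRMS shRNA and 0.0335 to 0.175 in vector libraries. PTPRC, CD3E, VWF, DCN, LUM, HBB and HBA1 were not among the listed genes, and COL3A1 was at 0 in all but 1 library. The part of these differences in the results on zinc finger genes was not tested. In bulk libraries, fewer cells of a kind and less RNA per cell cannot be told apart.

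Most zinc finger proteins of chromosome 19 bind DNA through long arrays of C2H2 fingers and carry a KRAB domain at the amino end. The KRAB domain binds TRIM28 (KAP1), which recruits the methyltransferase SETDB1 and HP1 proteins and so places repressive histone methylation on the bound DNA. Many of these genes arose by tandem duplication in primates and mammals, and a large share of their known targets are endogenous retroviruses and other transposable elements. By the translated coding sequences of the annotation, 161 of the 192 members held a KRAB pattern and 31 did not. The number of C2H2 finger patterns had a median of 12 and reached 32 in ZNF91.

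Under the deposited scaling, but not after median scaling, zinc finger members were lower more often than higher in libraries labelled SRMS shRNA. Of the 192, 24 were higher and 69 lower at a limma adjusted p under 0.05 (Benjamini-Hochberg over all genes), and 99 did not pass. Among all 14029 genes, 56.8% passed, 26.6% as higher and 30.2% as lower, so the share of lower members (35.9%) was near the background and the share of higher members (12.5%) was under it. The median log2 fold change of the members was -0.14, beside 0.00 for all genes. ZNF genes on the other chromosomes (231) counted 26 higher and 108 lower, and their median was -0.21. The other 811 genes of chromosome 19 counted 343 higher and 136 lower, and their median was 0.16. No test compared these sets. Summed over all members, the signal was 1714, 1649 and 1635 in libraries labelled SRMS shRNA and 1725, 1680 and 1684 in vector libraries, and these ranges overlapped. Signals of the groups did not overlap for 25 higher and 81 lower members, against 29.7% and 32.9% of all genes.

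The balance depended on how the libraries were scaled. Aligning the libraries at their medians shifted the typical gene by 0.16 log2 units. Counted that way, 48 members were higher and 38 lower, their median was 0.02, and 44.6% of all genes passed as higher and 17.9% as lower. Median scaling moves every gene by the same amount. The distance of the members' median from that of all genes (-0.14) is thus the same under both scalings by construction. Count models on the recovered reads gave 26 higher and 70 lower members by edgeR (27.7% and 29.7% of all genes) and 25 higher and 63 lower by DESeq2 (25.6% and 27.0%). A limma fit with the replicate number as a block gave 28 higher and 80 lower members (31.0% and 34.3% of all genes). With the block and the trend over transcript length and GC content removed, 43 were higher and 69 lower (28.6% and 32.6% of all genes).

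The lower calls were denser on the short arm. On 19p, 2 of 55 members were higher and 30 lower (median log2 fold change -0.33), and the 2 higher became 1 without vector replicate 3 or replicate 2 of SRMS shRNA. On 19q, 22 of 137 were higher and 39 lower (median -0.06). Median scaling left 4 higher and 21 lower on 19p, and gave 44 higher and 17 lower on 19q, so there the balance turned. The 39 lower members of 19q became 25 without vector replicate 1 and likewise 25 without replicate 2 of SRMS shRNA. Much of the 19p count came from a single run of genes near the centromere. The 36 members of 19p outside it counted 2 higher (5.56%) and 13 lower (36.1%), with a median of -0.15.

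**Figure D1:**
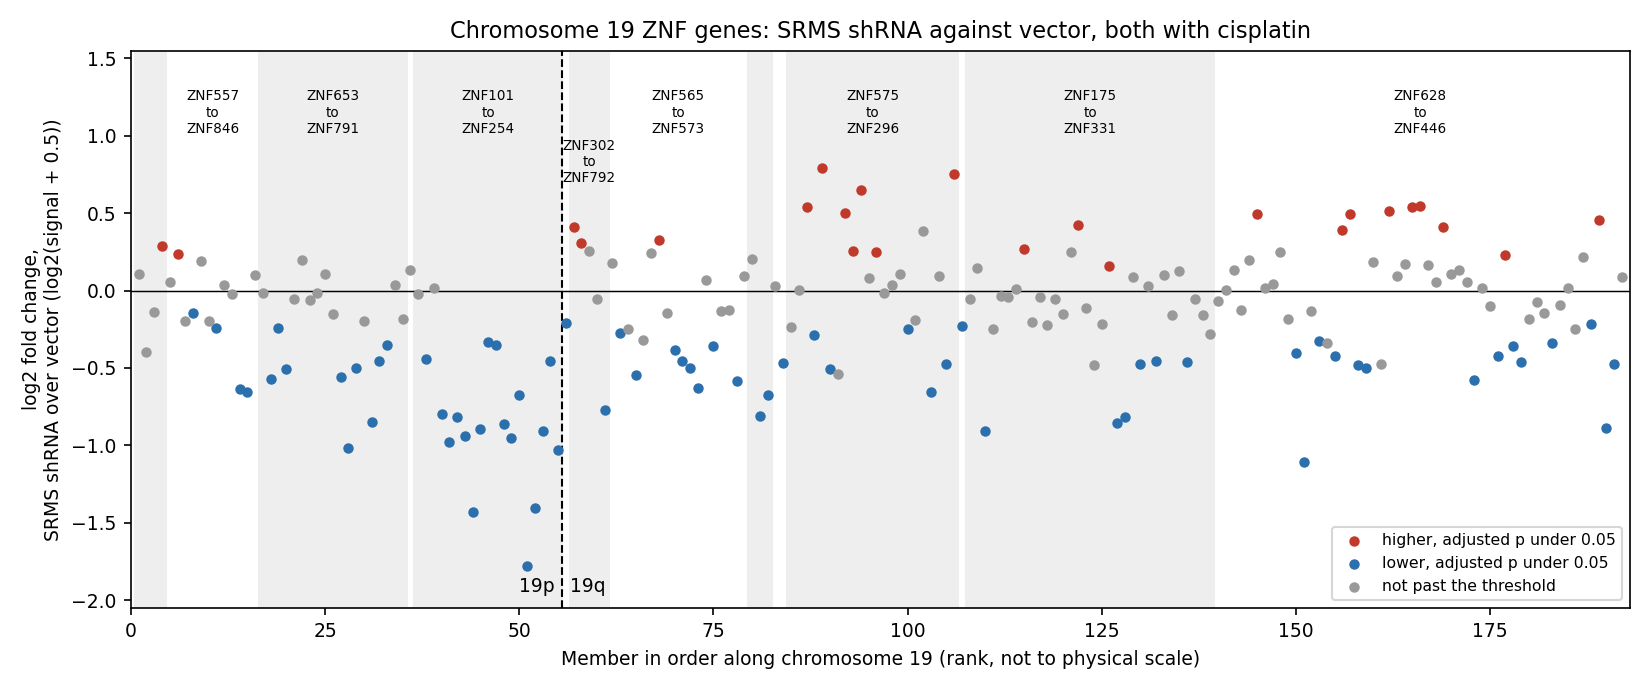
Each point is 1 of the 192 members, in order along chromosome 19 (horizontal axis, rank, not to physical scale) with its log2 fold change of SRMS shRNA over vector on log2(signal + 0.5) (vertical axis). Shading and names mark runs of neighbouring genes, and the dashed line separates 19p from 19q. The run from ZNF101 to ZNF254 holds 17 lower and no higher members, and the lowest point is ZNF91 at -1.78.

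Nearly all listed genes of the run nearest the centromere of 19p, called here the ZNF91 cluster, were lower in libraries labelled SRMS shRNA. The cluster spans bases 19668796 to 24129961 of chromosome 19 (GRCh38), from ZNF101 to ZNF254, and the table lists 19 of its 37 annotated genes. The other 18 are not analysed here. With the submitters' filter unknown, some of the 19 may be listed through the vector group alone, which would favour lower calls. Of the 19, 17 were lower (89.5%, beside 30.2% of all genes) and 0 higher, and the median log2 fold change was -0.86. The only listed members that did not pass were ZNF101 and ZNF506, both at the telomeric end, with log2 fold changes of -0.02 and 0.01. The summed signal of the 19 was 28.6, 27.8 and 28.2 in libraries labelled SRMS shRNA, against 46.3, 40.6 and 41.3 in vector libraries. Without ZNF101, ZNF14 and ZNF506, the sum of the other 16 was 13, 12 and 14 in libraries labelled SRMS shRNA against 29, 25 and 25 in vector libraries. That run of 16 was chosen after its values were seen. Low signals weigh on the size of these changes, because adding 0.5 before the logarithm shrinks the fold change of low genes. The median was -3.08 by edgeR and -3.17 by DESeq2, and it was -2.07 with a pseudocount of 0.1.

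ZNF91, the member with the longest finger array and a repressor of SVA and L1 retroelements, had the lowest fold change of all members on the log2(signal + 0.5) scale. By the ratio of mean signals, members with fewer reads were lower still, such as ZNF90 (0.0277), ZNF100 (0.0340) and ZNF93 (0.0403) beside ZNF91 (0.0782). Its signal was 0.182, 0.0825 and 0.128 in libraries labelled SRMS shRNA, against 1.41, 2.05 and 1.57 in vector libraries. These are 12 reads in libraries labelled SRMS shRNA and 226 in vector libraries, a depth-adjusted ratio of 0.0743 (95% exact counting interval 0.0378 to 0.132). The groups lay far apart, and the log2 fold change was -1.78 (SE 0.14, adjusted p = 4.22e-06). The gene runs on the minus strand from 23304991 to 23395560.

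ZNF93, known for repressing L1 elements of the L1PA lineage, was near the limit of detection in libraries labelled SRMS shRNA. It had signals of 0, 0 and 0.0639 in them and 0.535, 0.458 and 0.593 in vector libraries, or 2 reads and 71 reads in all (ratio 0.0394, interval 0.00469 to 0.148). All 3 vector libraries were higher than all 3 others (log2 fold change -0.98, SE 0.12, adjusted p = 9.29e-05). ZNF675, reported to restrain TRAF6 signalling, had signals of 0.292, 0.522 and 0.128 in libraries labelled SRMS shRNA and 1.41, 1.64 and 1.81 in vector libraries. Here too the groups did not overlap (log2 fold change -1.40, SE 0.17, adjusted p = 7.84e-05).

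Other members of the cluster, named after their values were seen, showed the same pattern at other levels. ZNF85 had 0.182, 0.137 and 0.128 in libraries labelled SRMS shRNA and 1.27, 1.44 and 1.06 in vector libraries (log2 fold change -1.43, adjusted p = 8.32e-06). ZNF254, the last listed gene before the centromere, had 0.073, 0.0275 and 0.0959 in libraries labelled SRMS shRNA against 0.803, 0.546 and 0.627 in vector libraries (log2 fold change -1.03, adjusted p = 9.44e-05). Both were well below every vector library in all 3 libraries labelled SRMS shRNA. ZNF708, ZNF738, ZNF100, ZNF90 and ZNF681 had 1 to 3 reads each over the 3 libraries labelled SRMS shRNA, against 41 to 68 in vector libraries. ZNF430 was an exception in level, with 1.17, 1.48 and 1.66 in libraries labelled SRMS shRNA and 3.31, 2.88 and 3.08 in vector libraries (log2 fold change -0.90, adjusted p = 1.54e-04). The most abundant of the 17 changed less. ZNF714 had 7.15, 6.32 and 7.03 in libraries labelled SRMS shRNA against 10.3, 7.79 and 8.24 in vector libraries, and ZNF431 had 4.12, 3.02 and 4.41 in libraries labelled SRMS shRNA against 5.59, 4.93 and 4.53 in vector libraries. Their log2 fold changes were -0.33 and -0.35, and both missed the threshold after median scaling (adjusted p = 0.18 and 0.23), as did ZNF726 (0.10).

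**Figure D2:**
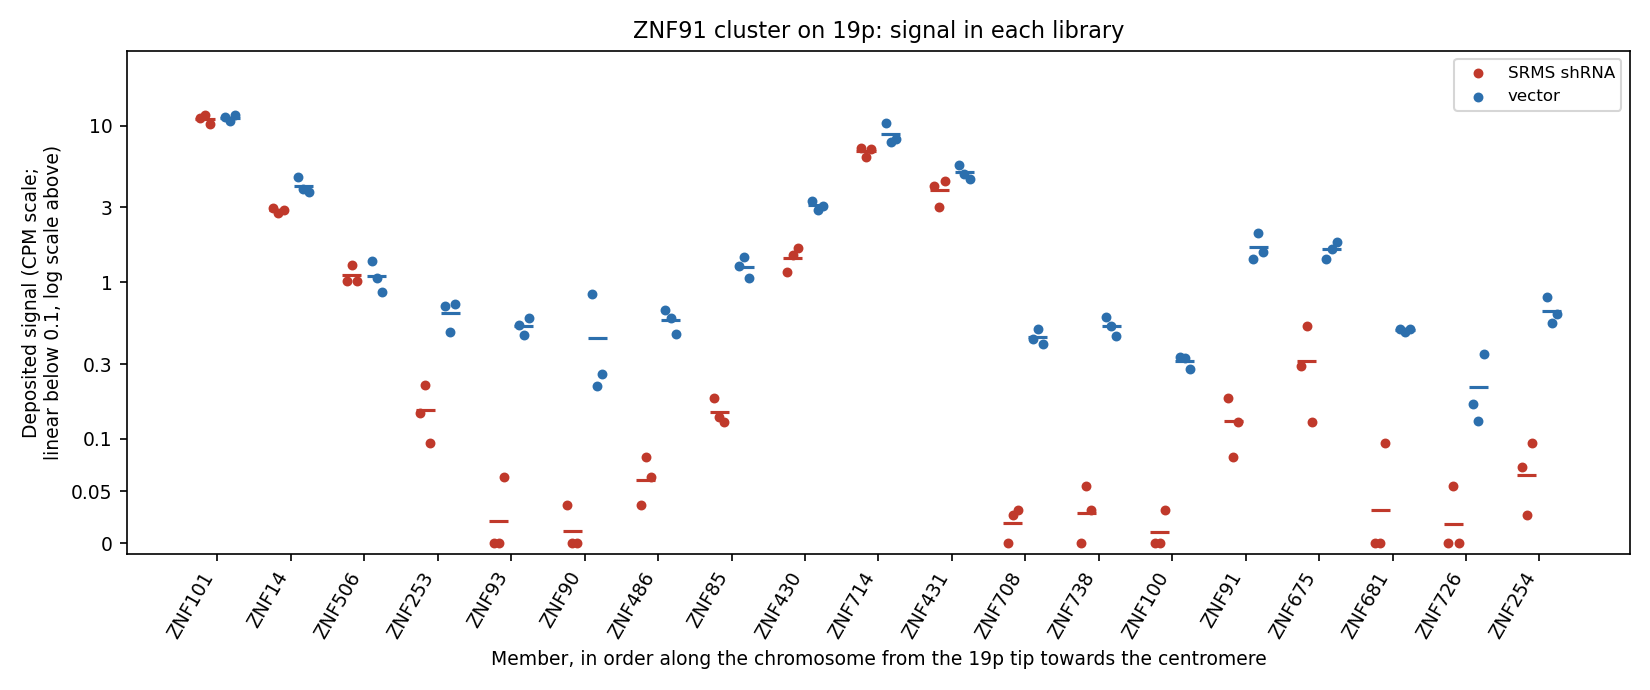
Deposited signal (vertical axis, CPM scale, linear below 0.1 and logarithmic above) of the 19 listed members of the ZNF91 cluster, in chromosomal order, with 3 points and a mean bar for SRMS shRNA (red, left) and for vector (blue, right). From ZNF253 on, every member has its 3 red points under its 3 blue points, while ZNF101 and ZNF506 overlap.

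ZNF101 stood at the telomeric edge with no difference past the threshold. It had 11.2, 11.7 and 10.3 in libraries labelled SRMS shRNA and 11.3, 10.7 and 11.7 in vector libraries, and per length it was the most abundant member of the cluster (2.41 signal per kilobase of transcript). Its log2 fold change of -0.02 had a limma 95% interval of -0.19 to 0.15, so a change within those bounds was not excluded. Next to it, ZNF14 had 2.99, 2.78 and 2.88 in libraries labelled SRMS shRNA against 4.68, 3.93 and 3.75 in vector libraries (log2 fold change -0.45, adjusted p = 4.85e-03). The 13 listed genes outside the family that start within 500 kilobases before ZNF101 were mixed, with 5 higher and 3 lower. No gene outside the family was listed inside the span.

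The promoters of the cluster share a sequence. RefSeq promoters (GRCh38.p14, 250 bases before to 50 after the start) were found for 173 of the 192 members and for 16 of the 19 in this cluster. All 16 contain CCAATCAGG on either strand, an extended form of the CCAAT box, which NF-Y is known to bind. These letters are in 1.20% of all 27305 promoters of the table and in 13 of the 157 promoters of members outside the cluster (8.28%). They were picked by comparing these promoters, so the shares describe them and test nothing. Of the members outside the cluster, 6 of 48 lower and 1 of 22 higher ones hold them. The 5 promoters shown are those of ZNF91, 3 further members that fell, and ZNF101, which did not pass the threshold; each is written 5′ to 3′ on the gene's own strand with CCAATCAGG in capitals. Their positions are chr19:23395422-23395721 (minus strand), chr19:20923001-20923300 (plus), chr19:19900696-19900995 (plus), chr19:23687163-23687462 (minus) and chr19:19668589-19668888 (plus).
ZNF91: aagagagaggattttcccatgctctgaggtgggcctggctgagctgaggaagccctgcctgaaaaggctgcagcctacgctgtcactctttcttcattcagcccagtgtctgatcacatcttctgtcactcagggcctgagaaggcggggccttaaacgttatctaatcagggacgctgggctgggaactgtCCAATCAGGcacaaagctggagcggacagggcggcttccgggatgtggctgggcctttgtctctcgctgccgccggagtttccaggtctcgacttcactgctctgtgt
ZNF85: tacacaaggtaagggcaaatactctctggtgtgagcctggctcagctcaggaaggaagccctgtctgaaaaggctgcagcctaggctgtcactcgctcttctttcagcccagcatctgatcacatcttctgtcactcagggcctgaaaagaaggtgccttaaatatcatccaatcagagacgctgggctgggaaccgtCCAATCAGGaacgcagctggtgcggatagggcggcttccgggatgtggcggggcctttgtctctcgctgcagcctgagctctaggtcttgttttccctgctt
ZNF93: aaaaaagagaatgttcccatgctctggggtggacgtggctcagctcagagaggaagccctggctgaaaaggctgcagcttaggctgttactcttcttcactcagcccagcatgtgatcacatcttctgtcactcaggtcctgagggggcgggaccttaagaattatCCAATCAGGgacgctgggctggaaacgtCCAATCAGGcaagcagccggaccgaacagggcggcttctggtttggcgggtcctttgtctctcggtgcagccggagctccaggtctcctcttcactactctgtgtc
ZNF675: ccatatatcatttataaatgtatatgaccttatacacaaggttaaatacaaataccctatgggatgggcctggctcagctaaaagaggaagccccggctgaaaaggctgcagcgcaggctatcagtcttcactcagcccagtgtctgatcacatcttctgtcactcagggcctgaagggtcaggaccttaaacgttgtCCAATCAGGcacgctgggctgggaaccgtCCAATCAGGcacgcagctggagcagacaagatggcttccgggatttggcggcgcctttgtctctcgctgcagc
ZNF101: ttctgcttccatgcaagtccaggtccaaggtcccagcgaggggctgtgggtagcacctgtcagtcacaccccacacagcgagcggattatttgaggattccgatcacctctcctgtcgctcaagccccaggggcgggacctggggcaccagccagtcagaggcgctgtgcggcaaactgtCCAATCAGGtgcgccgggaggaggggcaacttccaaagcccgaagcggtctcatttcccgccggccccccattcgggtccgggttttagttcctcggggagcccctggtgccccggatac

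Sequence relatedness ran beyond this box. Aligned to the ZNF91 promoter, 13 others of the cluster shared 81.3% to 90.0% of aligned bases, and that of ZNF101 shared 66.5%. The ZNF14 promoter could not be aligned over 200 bases or more. ZNF93 and ZNF675 hold CCAATCAGG in 2 places and the other 3 shown in 1, ZNF101 included, so its presence did not separate members that fell from those that did not pass. The shorter CCAAT, which the longer motif contains, is in 35.7% of all promoters and 52.0% of members' promoters. The letters CCGGAAG, the core bound by ETS factors, are in 10.7% of all promoters, 43.4% of members' promoters and 11 of the 16 in the cluster. CpG dinucleotides numbered 9 to 18 per promoter in the cluster, with a median of 10, beside a median of 22 in the other members' promoters and 14 in all. A match is a description of letters and says nothing of binding in these cells.

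Zinc finger genes were frequent among the few genes that fell at least 4-fold in mean signal, a criterion chosen after the values were seen. In all, 51 of 14029 genes (0.364%) passed the threshold and were that much lower. Of these, 21 were members, 13 of them in the ZNF91 cluster. Among the 21, 13 had no reads in at least 1 library labelled SRMS shRNA, so their listing may rest on the vector group. A further 3 were ZNF genes of other chromosomes (ZNF141, ZNF680 and ZNF718) and 3 were other genes of chromosome 19 (CAPN12, GPR4 and ZFP30). None of the 82 genes (0.585%) that passed and were at least 4-fold higher was a member. Of 2980 genes with a mean signal under 2, 7.48% were lower and 25.2% higher, whereas of the 55 members at that level 27 were lower and none higher. The ZNF91 cluster supplied 14 of these 55 and 13 of the 27.

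Of the 8 strongly lower members outside the ZNF91 cluster, 7 lay in 3 runs. These runs are large, with 19, 53 and 18 of the 173 members outside that cluster, and no test was made of this placing. ZNF44 and ZNF563 are neighbours in the listed order on 19p, ZNF470 and ZNF71 are neighbours on 19q, and ZNF420, ZNF585A and ZNF607 share the run from ZNF565 to ZNF573, while ZNF816 was the 1 such member of its run. ZNF71, on 19q, had signals of 0.0365, 0.055 and 0.128 in libraries labelled SRMS shRNA, against 0.836, 0.873 and 0.523 in vector libraries (log2 fold change -1.11, SE 0.15, adjusted p = 1.23e-04). ZNF44, on 19p, had 0.219, 0.0275 and 0.224 in libraries labelled SRMS shRNA against 0.803, 0.83 and 0.819 in vector libraries (log2 fold change -1.02, adjusted p = 2.04e-04). In both genes the vector libraries were well above every library labelled SRMS shRNA. ZNF420, ZNF470, ZNF563, ZNF585A, ZNF607 and ZNF816 had 1 to 9 reads over the libraries labelled SRMS shRNA, against 29 to 55 in vector libraries, with log2 fold changes of -0.58 to -0.41.

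The other 19p clusters changed less. From ZNF653 to ZNF791, 9 of 19 members were lower and none higher (median -0.20), with log2 fold changes from -1.02 for ZNF44 to 0.20. From ZNF557 to ZNF846, 4 of 12 were lower and 1 higher (median -0.08), and 2 were lower without replicate 2 of SRMS shRNA. From ZNF554 to ZNF77, 1 of 4 was higher and none lower, and ZNF333, which stands alone, did not pass. The shares of lower members in the first 2 of these runs, 47.4% and 33.3%, were above and near the 30.2% of all genes, and no test set the runs apart.

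On 19q the clusters held both directions. From ZNF575 to ZNF296, 7 of 22 members were higher and 5 lower (median 0.06), and 5 of the 8 highest members named below lie here. From ZNF628 to ZNF446, the largest run with 53 members, 9 were higher and 14 lower (median 0.00). The run from ZNF175 to ZNF331 had 3 higher and 6 lower of 32 (median -0.08), and that from ZNF565 to ZNF573 had 1 higher and 8 lower of 18 (median -0.26). The smaller runs were those from ZNF302 to ZNF792 (2 higher, 1 lower of 5; median 0.26), from ZNF546 to ZNF780A (2 lower of 3) and ZNF574 with ZNF526 (1 lower of 2), while ZNF507 and ZNF473, each alone, were lower. These counts moved with single libraries. Without vector replicate 1 the lower members became 7 from ZNF628 to ZNF446, 3 from ZNF575 to ZNF296 and 4 from ZNF565 to ZNF573. Without replicate 2 of SRMS shRNA they were 7, 3 and 5, and without its replicate 3 they were 8, 3 and 4. Without vector replicate 3 the run from ZNF565 to ZNF573 had 4, and the 3 higher members from ZNF175 to ZNF331 became 1 without vector replicate 2 or 3, or replicate 1 or 2 of SRMS shRNA. After the ZNF91 cluster's median of -0.86, the next lowest median among runs of 5 or more was -0.26. Likeness of neighbours within a run rested largely on the ZNF91 cluster. The log2 fold changes of a member and the next had a Pearson r of 0.36 over 178 neighbouring pairs. Over the 160 pairs outside the ZNF91 cluster r was 0.12. These pairs share libraries and, in part, sequence.

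**Figure D3:**
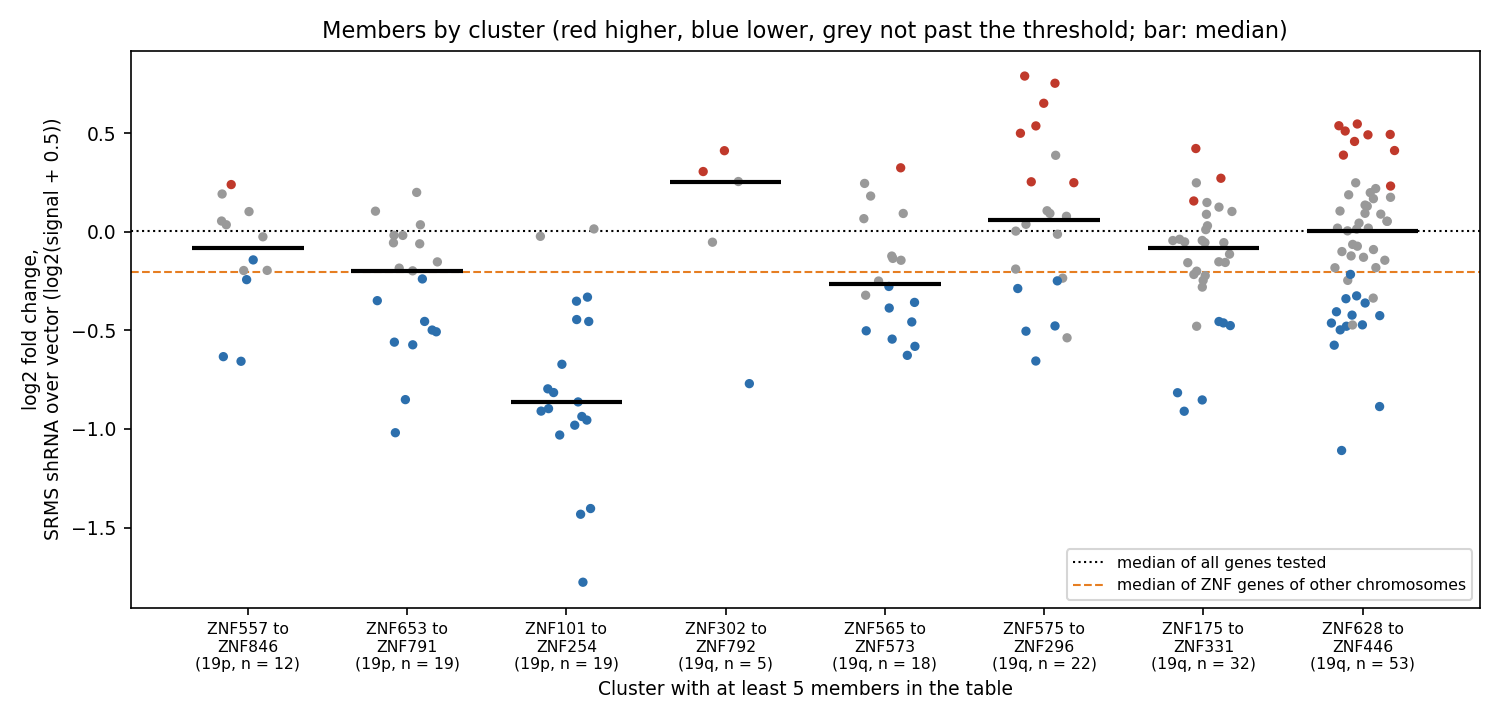
Log2 fold change of SRMS shRNA over vector on log2(signal + 0.5) (vertical axis) for the members of each run with at least 5 listed members (horizontal axis, in chromosomal order); points are members and black bars medians. The run from ZNF101 to ZNF254 has its median at -0.86, under the median of all genes (dotted, 0.00) and that of ZNF genes on other chromosomes (dashed, -0.21).

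Among members with a mean signal of at least 2 in the higher group, the lowest on the log2(signal + 0.5) scale was ZNF649, reported as a repressor of SRF and AP-1 activity. It had 3.21, 2.56 and 2.3 in libraries labelled SRMS shRNA and 6.59, 4.69 and 5.23 in vector libraries. All 3 vector libraries were above the others (log2 fold change -0.91, SE 0.14, adjusted p = 3.53e-04; ratio 0.497, interval 0.429 to 0.575). Next on that scale came ZNF430, which was the lower of the pair by ratio of mean signals (0.465, against 0.489 for ZNF649) and by edgeR (log2 fold changes of -1.08 and -1.01). ZNF324B followed with 2.7, 2.28 and 1.79 in libraries labelled SRMS shRNA against 4.78, 4.06 and 4.84 in vector libraries (log2 fold change -0.89). ZNF611 had 3.21, 1.79 and 1.95 in libraries labelled SRMS shRNA against 5.12, 4.04 and 4.3 in vector libraries (-0.85), its replicate 1 standing above the other 2 in both groups. The neighbours ZNF780B and ZNF780A fell together. ZNF780B had 2.52, 1.59 and 1.79 in libraries labelled SRMS shRNA and 4.05, 3.49 and 3.8 in vector libraries, and ZNF780A 3.87, 3.63 and 3.74 in libraries labelled SRMS shRNA against 6.93, 6.42 and 5.52 in vector libraries (log2 fold changes -0.81 and -0.67). ZNF792 (0.839, 1.07 and 1.41 in libraries labelled SRMS shRNA against 2.17, 2.23 and 2.23 in vector libraries; -0.77) and ZNF562 (8.83, 6.6 and 6.39 in libraries labelled SRMS shRNA against 12.2, 11 and 11.8 in vector libraries; -0.66) completed the 8. Adjusted p for these 8 lay between 1.54e-04 and 1.88e-03.

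The 8 highest members all sat on 19q. ZNF404 had 5.07, 5.25 and 4.44 in libraries labelled SRMS shRNA and 2.54, 2.66 and 2.68 in vector libraries, with no overlap (log2 fold change 0.79, SE 0.10, adjusted p = 8.39e-05). ZNF296, whose mouse counterpart aids reprogramming to pluripotency, had 2.48, 3.24 and 2.49 in libraries labelled SRMS shRNA against 1.41, 1.40 and 1.43 in vector libraries (0.75, SE 0.12). These 2 genes share a run with ZNF222, which had 13.2, 12.4 and 11.9 in libraries labelled SRMS shRNA against 7.46, 7.29 and 8.63 in vector libraries (0.65), and with ZNF155, which had 10.7, 9.68 and 9.78 in libraries labelled SRMS shRNA against 7.29, 6.81 and 6.74 in vector libraries (0.50). ZNF428, a short protein of 188 residues with 1 finger, had 53.1, 64.8 and 59.1 in libraries labelled SRMS shRNA and 39.0, 40.7 and 41.5 in vector libraries (0.54). It was the most abundant member per length, at 35.2 signal per kilobase of transcript. Near the end of 19q, ZNF416 (12.8, 12 and 13.2 in libraries labelled SRMS shRNA against 9, 8.23 and 8.33 in vector libraries), ZNF550 (19, 15.6 and 15.4 in libraries labelled SRMS shRNA against 12.5, 11.7 and 9.79 in vector libraries) and ZNF419 (15.9, 12.9 and 12 in libraries labelled SRMS shRNA against 9.97, 9.19 and 8.91 in vector libraries) lay between bases 57487711 and 57578927. Their log2 fold changes were 0.55, 0.54 and 0.51, and adjusted p for the 8 highest ran from 7.59e-05 to 1.60e-03.

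**Figure D4:**
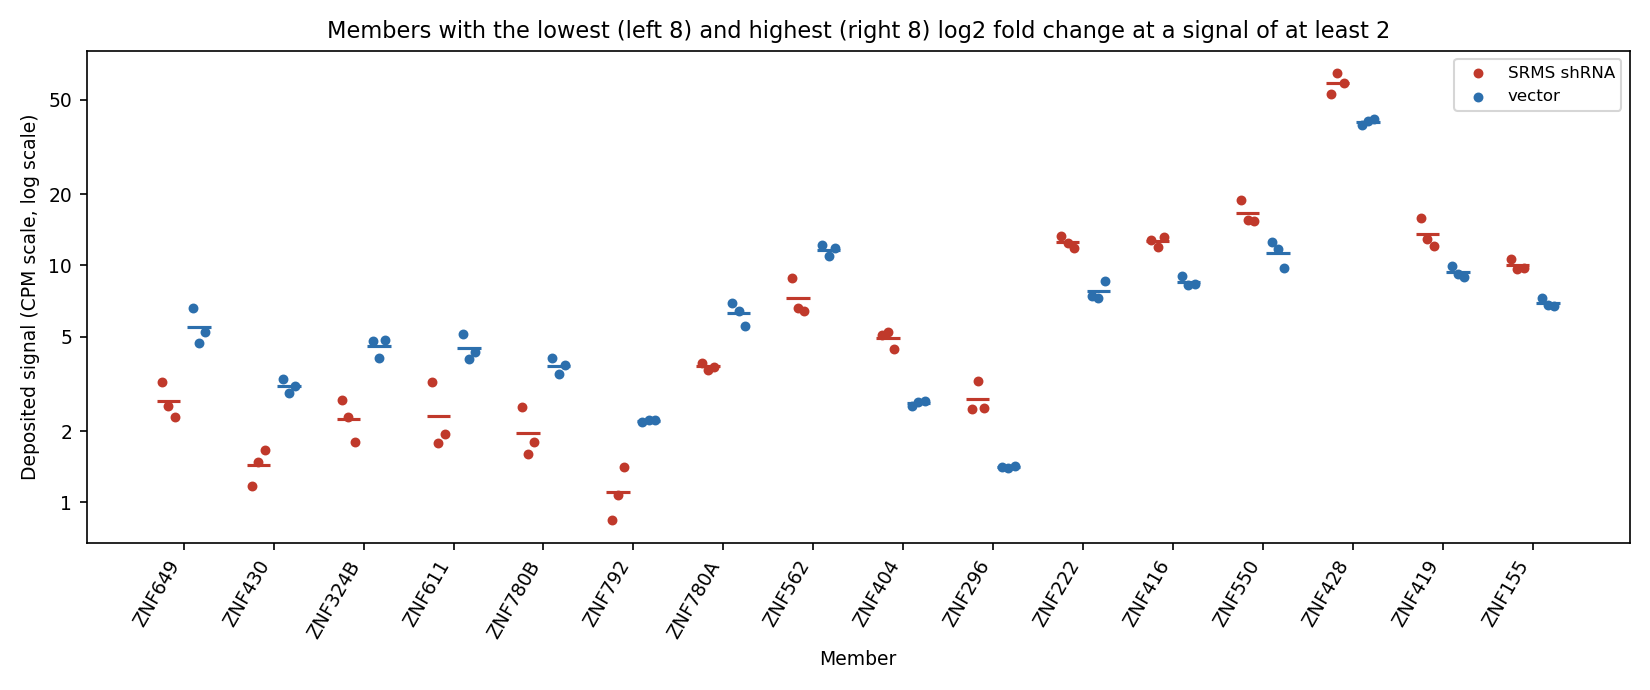
Deposited signal (vertical axis, CPM scale, logarithmic) of the 8 members with the lowest and the 8 with the highest log2 fold change among those past the threshold with no overlap and a mean of at least 2 in 1 group. Each has 3 points and a mean bar for SRMS shRNA (red, left) and vector (blue, right), and in all 16 the colours do not overlap.

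Other members with a known role outside the ZNF91 cluster moved little or not past the threshold. ZNF417 and ZNF587, near-identical neighbours that repress HERVK elements, had 7.37, 4.43 and 6.27 in libraries labelled SRMS shRNA against 9.3, 7.73 and 8.02 in vector libraries, and 9.74, 7.12 and 7.8 in libraries labelled SRMS shRNA against 12.2, 10.02 and 9.79 in vector libraries. Both were called lower (log2 fold changes -0.46 and -0.36, adjusted p = 0.025 and 0.026), and neither passed after median scaling (adjusted p = 0.10 and 0.16). ZNF417 shares 26% of its 100-base windows with another gene and ZNF587 shares 12.4%, so the split of reads between such copies is uncertain. ZNF224, a KRAB repressor and cofactor of WT1, had 21.3, 17.8 and 19.4 in libraries labelled SRMS shRNA against 18.3, 15.4 and 15.3 in vector libraries, and was called higher (0.25, adjusted p = 0.033) although the groups overlapped. ZNF432, linked to DNA repair through poly(ADP-ribose) binding, had 12.7, 11.7 and 9.98 in libraries labelled SRMS shRNA against 8.83, 9.61 and 9.6 in vector libraries, just clear of overlap (0.27, adjusted p = 0.029). These 4 calls did not hold without single libraries. ZNF417 missed the threshold without vector replicate 1 or 3 or replicate 2 of SRMS shRNA (adjusted p = 0.0858, 0.0501 and 0.074), and ZNF587 without vector replicate 1 or replicate 2 or 3 of SRMS shRNA (0.0993, 0.105 and 0.0791). ZNF224 missed it without vector replicate 2 or 3 or replicate 1 or 3 of SRMS shRNA (0.112, 0.12, 0.0821 and 0.0743). ZNF432 missed it without any 1 library other than replicate 3 of SRMS shRNA (0.0541 to 0.0872).

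Several others gave no difference past the threshold. ZNF274, which recruits SETDB1 through TRIM28 to the 3′ ends of zinc finger genes, had 14.8, 11.2 and 11.6 in libraries labelled SRMS shRNA and 14, 13.4 and 14.1 in vector libraries (-0.14, SE 0.10, adjusted p = 0.236), and it passed as lower without replicate 1 of SRMS shRNA (-0.27, adjusted p = 0.00723). ZNF331, an imprinted gene, had 1.28, 1.24 and 1.34 in libraries labelled SRMS shRNA against 1.87, 1.75 and 1.41 in vector libraries (-0.28, SE 0.12, adjusted p = 0.066), and it passed without vector replicate 3 (-0.37, adjusted p = 0.0372). The tumour suppressor candidates ZNF671 and ZNF382 did not pass either: ZNF671 had 6.35, 5.17 and 5.18 in libraries labelled SRMS shRNA against 6.46, 4.72 and 4.93 in vector libraries (0.05, SE 0.13), and ZNF382 12 reads in libraries labelled SRMS shRNA against 4 in vector libraries (ratio 4.20, interval 1.27 to 17.9; adjusted p = 0.125). ZNF382 passed as higher after median scaling (adjusted p = 0.0182), without the trend (0.0333) and with the block and the length and GC trend removed (0.00556), and in no other alternative.

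The most abundant members per length in their runs were spread over all outcomes. ZNF580 had 50.8, 57.9 and 57.6 in libraries labelled SRMS shRNA against 33.8, 41.1 and 43.4 in vector libraries (log2 fold change 0.49, adjusted p = 7.80e-04), and ZNF358 36.3, 40.0 and 41.0 in libraries labelled SRMS shRNA against 33.3, 31.9 and 33.8 in vector libraries (0.24, adjusted p = 4.39e-03). ZNF146 (OZF), a protein made almost only of fingers, had 53.4, 49.2 and 48.9 in libraries labelled SRMS shRNA against 66.5, 59.97 and 57.6 in vector libraries (-0.28, adjusted p = 2.52e-03), which missed the threshold after median scaling (0.097). ZNF700, ZNF30 and ZNF761 overlapped between the groups, with log2 fold changes of -0.06, -0.05 and -0.06.

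Features of the members that the rule did not use varied with the fold change. Of the 161 members with a KRAB pattern, 11.8% passed as higher (19) and 39.1% as lower (63). Of the 31 without it, 16.1% passed as higher (5) and 19.4% as lower (6). Among all genes these shares were 26.6% and 30.2%. The median log2 fold changes were -0.16 with the pattern and 0.00 without it. Both sets also differed in median transcript GC content (42.2% with, 61.7% without) and median vector signal (4.47 with, 15.3 without). The part of these differences in the fold changes was not tested. The ZNF91 cluster supplied 16 of the 63. Outside it, 143 members with the pattern remained, and 13.3% passed as higher (19) and 32.9% as lower (47). That lower share was near the 30.2% of all genes. The median log2 fold change of these 143 was -0.14. Across the 192 members the log2 fold change had a Pearson r of 0.41 with mean log2 signal, 0.28 with transcript GC content, -0.23 with the number of fingers and -0.19 with transcript length. Outside the ZNF91 cluster (173 members) these were 0.28, 0.16, -0.22 and -0.27. The mean log2 signal includes the libraries labelled SRMS shRNA, which also enter the fold change, so its r is in part built in. Members share libraries and ancestry, so they are no independent points. Of the 48 members with the lowest GC content (33.5% to 40.2%), 26 were lower (a share of 54.2%) and 7 higher (14.6%). This count leans on the ZNF91 cluster, where 17 of 19 members were lower and the median GC content was 37.5%. Of the 48 with the highest (46.2% to 71.1%), 13 were lower (27.1%) and 8 higher (16.7%). Near-identical copies touched few members: 115 shared no 100-base window with another gene, and 10 shared over 20%. Without these 10, among them ZNF8-ERVK3-1, a read-through gene that fits the naming rule, 24 were higher (13.2%) and 64 lower (35.2%).

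A list of partners of KRAB proteins in silencing and of related factors, such as TRIM24 and TRIM33, moved in both directions. Of 39 listed factors 37 were measured (ZFP57 and ATF7IP2 were not listed), of which 7 were higher (18.9%, against 26.6% of all genes) and 18 lower (48.6%, against 30.2%), and the median log2 fold change was -0.09. TRIM28, the shared corepressor, had 1366, 1446 and 1442 in libraries labelled SRMS shRNA and 1231, 1251 and 1246 in vector libraries (0.19, SE 0.03, adjusted p = 9.35e-04), a difference that turned to -0.04 under quantile scaling. SETDB1 had 19.96, 20.3 and 18 in libraries labelled SRMS shRNA against 25.5, 23.1 and 23.6 in vector libraries (-0.30, SE 0.07, adjusted p = 2.86e-03). The groups did not overlap for either gene. MORC3, an ATPase of silenced chromatin, had 16.3, 14.9 and 15 in libraries labelled SRMS shRNA against 31.2, 30.5 and 30.9 in vector libraries (-0.98, SE 0.06). TRIM33, a relative of TRIM28, had 12.8, 12.3 and 13 in libraries labelled SRMS shRNA against 26.6, 26.2 and 25.1 in vector libraries (-1.0, SE 0.06). Both were thus near one another in size of change and far outside the replicate spread. GATAD2A, a subunit of the NuRD remodelling complex whose gene lies just before the ZNF91 cluster, had 48.8, 44.6 and 44.5 in libraries labelled SRMS shRNA against 69.6, 69.6 and 68.8 in vector libraries (-0.59), and TASOR, the scaffold of the HUSH complex, had 56.2, 52.5 and 50.6 in libraries labelled SRMS shRNA against 79.4, 75.1 and 79.3 in vector libraries (-0.55). Median scaling gave 15 higher and 11 lower on this list, where 44.6% of all genes passed as higher and 17.9% as lower, and the balance of the list turned with it.

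**Figure D5:**
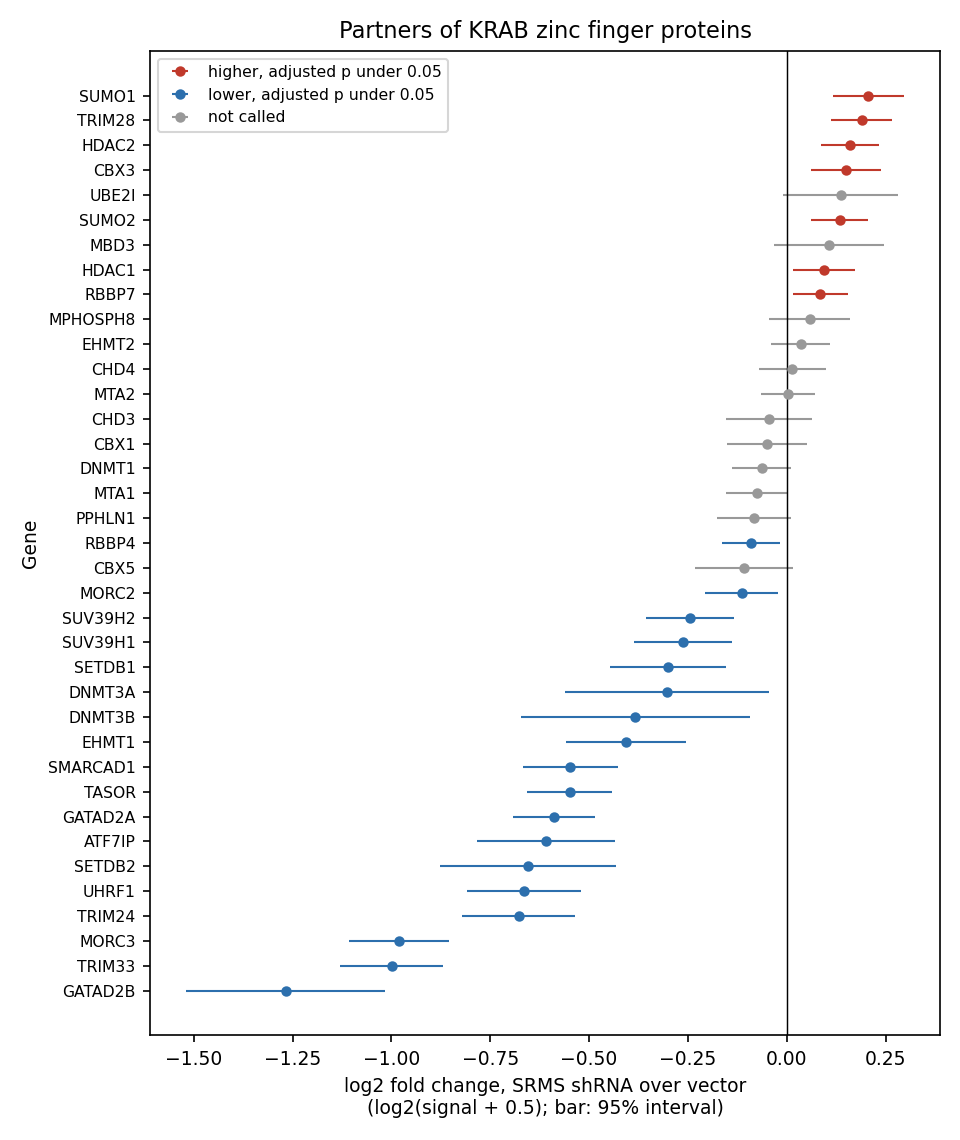
Log2 fold change of SRMS shRNA over vector on log2(signal + 0.5) (horizontal axis) with 95% intervals for the 37 measured partners of KRAB proteins and related factors (vertical axis, ordered by fold change). TRIM28 lies at 0.19, SETDB1 at -0.30, and GATAD2B, TRIM33 and MORC3 are the 3 lowest.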

How the data were processed

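RNA from ES-2 cells was poly(A)-selected, made into stranded libraries and read as paired ends, per the labels' protocols. The submitters' processing notes name FastQC, cutadapt, HISAT2, StringTie, edgeR and build GRCh38; their versions and the strand setting of the counting are not known here, so reads of overlapping antisense genes cannot be told apart. The deposited values are a linear signal, whole reads over an effective library size on the CPM scale; at least 99.99% of values were whole reads within a tolerance of 0.1.

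Of 14042 rows, 13 Y copies of pseudoautosomal genes were left out. Fits used limma 3.58.1 (R 4.3.3) with a trend on log2(signal + 0.5), 6 libraries, two-sided, Benjamini-Hochberg over 14029 genes, threshold 0.05. On simulated data it recovered 100% of 2-fold and 59% of 1.3-fold changes, with 8 false calls among 14029 genes. Only 200 genes were changed there, none with as few reads as ZNF91. The simulated spread had 1 setting for all genes and no shift of replicate 1. These figures therefore do not cover members with few reads. edgeR 4.0.16 and DESeq2 1.42.0 on the recovered reads were alternatives. Counting intervals cover counting error only.

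The labels share replicate numbers 1 to 3; same-numbered libraries deviated together (r = 0.31, 0.11 and 0.12) and the numbers were taken as pairs in the fits with the block, while the other fits are unpaired. Differently numbered libraries 2 and 3 correlated as much (r = 0.11 both ways), so replicate 1 alone stood apart. Replicates 2 and 3 were closer to each other than to replicate 1, yet differed beyond sampling noise (chi-square per gene 1.65 and 1.79).

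Arms were split at 26 Mb, and a run of genes ended where neighbouring annotated starts lay over 1 Mb apart. Finger and KRAB patterns came from GENCODE 29 coding sequences in place of the planned RefSeq proteins, and promoters from RefSeq by symbol. Members named are the 8 lowest and 8 highest past the threshold without overlap and with a mean signal of at least 2, the most abundant per transcript length in each run of 5 or more, those with a known role, and others said to be chosen after their values were seen. The members and lists were chosen with earlier results of these data known.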

Additional observations from a re-analysis of the deposited data

How the results depend on the processing

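The 17 lower members of the ZNF91 cluster had 14 to 17 of the same genes called in all alternatives except the filter to a mean log2 value of at least 1, which left 4 of them, since few of its members pass that filter, and the call rule that also asks for a log2 change of 1 or more in size. Under that rule 292 genes passed (105 higher, 187 lower), and among the members 6 did (0 higher, 6 lower), 4 of them in the ZNF91 cluster, and on the corepressor list 1 (0 higher, 1 lower). The filter gave 44 lower members, with medians of -0.0583 for the members and -0.35 for the ZNF91 cluster.

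Median scaling gave 6254 genes higher and 2510 lower, with 48 higher and 38 lower members, a median of 0.0193 in place of -0.14, a ZNF91 cluster median of -0.70, and 15 higher and 11 lower on the corepressor list. Quantile scaling gave medians of -0.0888 and -0.95, 4 higher on the corepressor list, and -0.0424 for TRIM28. The median of the ZNF91 cluster was -3.17 by DESeq2, -3.08 by edgeR, -2.07 with a pseudocount of 0.1, -0.50 with a pseudocount of 1 and -0.80 with array weights. The cause of these shifts was not tested, beyond the pseudocount's own pull on low signals.

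With the replicate block, paired by number, 28 members were higher and 80 lower, and no count given above moved by over 1.5 times; SRMS was the named gene whose call it changed. The block with the length and GC trend removed gave 43 higher members, medians of -0.0520 and -0.74, 14 higher on the corepressor list and -0.0054 for ZNF358. With replicates 2 and 3 averaged the cluster median was -0.93 and 3 of the list were higher. Without replicate 1 of both groups the cluster median was -0.75, and leaving out single libraries gave -0.92 to -0.84. With 3 libraries a group and members of a few reads, small changes were beyond this depth.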

Other observations

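Chromosome 19 also carries zinc finger genes under other names, which the naming rule leaves out. Of 9 listed genes of the ZFP, ZIM, ZSCAN, ZBTB, ZKSCAN, ZIK1 and PEG3 kinds on it, 1 was higher and 3 lower in libraries labelled SRMS shRNA (limma adjusted p under 0.05), and their median log2 fold change was -0.13. The lower share, 33.3%, was near the 30.2% of all genes, and the higher share was 11.1% beside 26.6%. ZFP30, a KRAB zinc finger gene of 19q, was among the 3 genes of the chromosome outside the ZNF names that passed and were at least 4-fold lower in mean signal.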
